A study of Mus musculus with 24 samples.

Results

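Ctse, Chil3 and Alox15 are 3 of the 35817 genes measured in sorted donor T cells before and after allogeneic transplantation. They were chosen by their measured level, as genes recorded as highest in Cat-Tg CD8 T cells post-transplant (post-tx). The data held that description for Ctse only. Chil3 had its highest mean in Cat-Tg CD4 post-tx cells, and Alox15 in the WT CD4 pre-transplant (pre-tx) libraries. What the genes shared was a wide gap between Cat-Tg and WT CD8 cells post-tx, with WT CD8 post-tx as the lowest of the 8 groups for each of them. Since that gap chose the genes, it is given as a description without a test.

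Each group held 3 libraries, for 24 in all: CD4 or CD8 cells, Cat-Tg or WT (wild type), pre-tx or day 7 post-tx, all from spleen and on the C57BL/6 background. Mice were 8 to 12 weeks old. Cat-Tg mice carry human β-catenin without its N-terminal part, cloned into the p1017 vector, a construct with the proximal Lck promoter that is active in T cells. Pre-tx cells came straight from donor mice. Post-tx cells came from lethally irradiated BALB/c recipients of a mix of CD4 and CD8 T cells, and every recipient, WT and Cat-Tg arms alike, also received T cell-depleted marrow from WT mice. That marrow has the same H-2Kb type as the donor T cells. All Cat-Tg sample names carried 1 prefix and all WT names another. Any other difference between the 2 sets of libraries cannot be told apart from genotype. By the paper's methods, the sequencing belonged to an experiment also described in the laboratory's other publications, which show the same WT data.

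Cathepsin E, encoded by Ctse, is an aspartic protease of endosomes, known in gastric surface epithelium, antigen-presenting cells and red cell membranes. Chil3 encodes Ym1, a secreted chitinase-like protein that binds sugars without cutting chitin, and is a classic product of mouse macrophages exposed to IL-4 or IL-13 and of maturing neutrophils. Alox15 encodes 12/15-lipoxygenase, which oxidises arachidonic and linoleic acid, and is known in resident peritoneal macrophages, eosinophils and maturing red cells. None of them is a classic T cell gene.

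The genes lie on separate chromosomes. In the GENCODE M21 annotation, build GRCm38, Ctse is at chr1:131638306-131675505 on the plus strand, Chil3 at chr3:106147554-106167564 on the minus strand and Alox15 at chr11:70344152-70352031 on the minus strand. No other annotated gene overlaps any of them. Nearly all reads of each gene fell on its main protein-coding transcript, of 2126 bases for Ctse, 1539 bases for Chil3 and 2409 bases for Alox15.

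The sequences bear on whether the reads can be told from those of relatives. Reads were assigned by short exact words, and 100% of the 31-base words of the main Ctse and Alox15 transcripts occurred in no other annotated gene. For Chil3 this share was 55.2%, because 31.1% of its words also occur in Chil4 and 26.0% in Gm6522. Chil4 encodes Ym2, and its gene neighbours Chil3 at chr3:106201490-106219507 on the minus strand. In 10 coding exons of equal length, 53 of 1177 bases differed, an identity of 95.5%. The coding exon with the highest share of differing bases is number 6, shown here for Chil3 (chr3:106155668-106155792) and Chil4 (chr3:106205995-106206119) with the 10 differing bases in capitals, 5′ to 3′ as transcribed.
Chil3: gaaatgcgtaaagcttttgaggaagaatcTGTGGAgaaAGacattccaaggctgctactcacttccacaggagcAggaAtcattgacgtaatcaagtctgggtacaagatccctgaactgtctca
Chil4: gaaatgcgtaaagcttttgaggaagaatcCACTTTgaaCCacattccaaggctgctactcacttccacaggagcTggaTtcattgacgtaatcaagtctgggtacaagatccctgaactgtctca

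Chil4 had at most 23 counts in any library and Gm6522 at most 45, against up to 23776 for Chil3. Reads that lie within shared words cannot be assigned with certainty, so the Chil3 values carry that uncertainty.

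The upstream stretches of Chil3 and Chil4 are shown because their levels differed so widely. RefSeq promoters (GRCm38.p6) were held for these genes, and none for Ctse or Alox15. The 250 bases before each RefSeq start are given, for Chil3 at chr3:106167565-106167814 and for Chil4 at chr3:106219480-106219729, both on the minus strand. The RefSeq start of Chil4 lies inside its GENCODE span given above, so the last bases of its stretch are within that span. The Chil3 stretch lies outside its GENCODE span. Capitals mark matches on either strand to AGATAA, the motif of GATA factors, to the STAT motif TTCNNNGAA and to the TATA box letters TATAA.
Chil3: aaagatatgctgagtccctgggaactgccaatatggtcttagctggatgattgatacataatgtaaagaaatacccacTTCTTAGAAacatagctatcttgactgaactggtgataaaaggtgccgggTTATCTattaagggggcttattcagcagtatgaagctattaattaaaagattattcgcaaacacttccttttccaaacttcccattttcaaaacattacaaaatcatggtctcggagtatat
Chil4: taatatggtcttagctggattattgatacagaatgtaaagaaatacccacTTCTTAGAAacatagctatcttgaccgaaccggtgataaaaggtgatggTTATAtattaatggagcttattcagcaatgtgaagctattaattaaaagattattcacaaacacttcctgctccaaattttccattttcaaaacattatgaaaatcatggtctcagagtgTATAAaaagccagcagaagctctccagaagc

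Chil3 held 1 match to AGATAA, starting 122 bases before its start, and Chil4 none, where 9.99% of 32851 promoters of this length hold one. Chil4 held 2 matches to TATAA and Chil3 none in this window, against 22.8% of promoters. The Chil4 match nearest its start begins 31 bases before it. With the offset of 28 bases given below, that place falls at the end of the Chil3 window. The window therefore cannot show whether Chil3 holds this match. Each held 1 match to TTCNNNGAA, as 7.02% of promoters do, within a stretch that the 2 genes share. Neither held the form with a longer spacer, TTCNNNNGAA, known for STAT6 (5.85% of promoters), or the PU.1 core GAGGAA (23.3%), and each held 1 match to the C/EBP core TTGNNNAA (33.3%). The annotated starts are offset by 28 bases in the best ungapped match of the 2 stretches, over which 67.6% of 222 bases were identical. No gap was allowed, so a base missing from either stretch puts the bases beyond it out of step and lowers this share.

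Levels are in CPM, read counts relative to library size, from estimated counts summed to genes and scaled by the TMM method over all 24 libraries. Ctse in Cat-Tg CD8 post-tx was 715, 770 and 554 CPM in the 3 libraries, 680 ± 112 (SD, n = 3). WT CD8 post-tx libraries had 2.57, 6.50 and 5.54 CPM, 4.87 ± 2.05 (SD, n = 3), from 38 to 139 counts. The groups were far apart, with a ratio of means of 139 and of 85.2 between the lowest Cat-Tg and the highest WT library. In TPM, the corresponding unit for transcripts that allows for length, Ctse had a mean of 292 TPM in Cat-Tg CD8 post-tx. By mean TPM it ranked 539 of 21775 protein-coding genes there, 8975 in WT CD8 post-tx and 479 in WT CD8 pre-tx.

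Chil3 in the same Cat-Tg libraries was 51.2, 81.9 and 70.5 CPM, and in the WT libraries 2.85, 0.736 and 0.279 CPM. These groups also lay apart, with means of 67.9 ± 15.5 and 1.29 ± 1.37 CPM (SD, n = 3) and a ratio of means of 52.7. Without WT replicate 1, the library with the highest of the WT levels, the log2 ratio rose from 5.72 to 7.06. Alox15 was 7.95, 18.2 and 16.1 CPM in Cat-Tg CD8 post-tx, 14.1 ± 5.43 (SD, n = 3). The 3 WT libraries held 1, 2 and 0 counts of it. Over the 3 libraries of a group, 1242 counts in Cat-Tg and 3 in WT gave a ratio of 261 per scaled total, with an exact 95% interval of 89.1 to 1268 that covers counting error only. The WT CD8 post-tx libraries held 18184813 to 32657005 counts each.

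**Figure D1:**
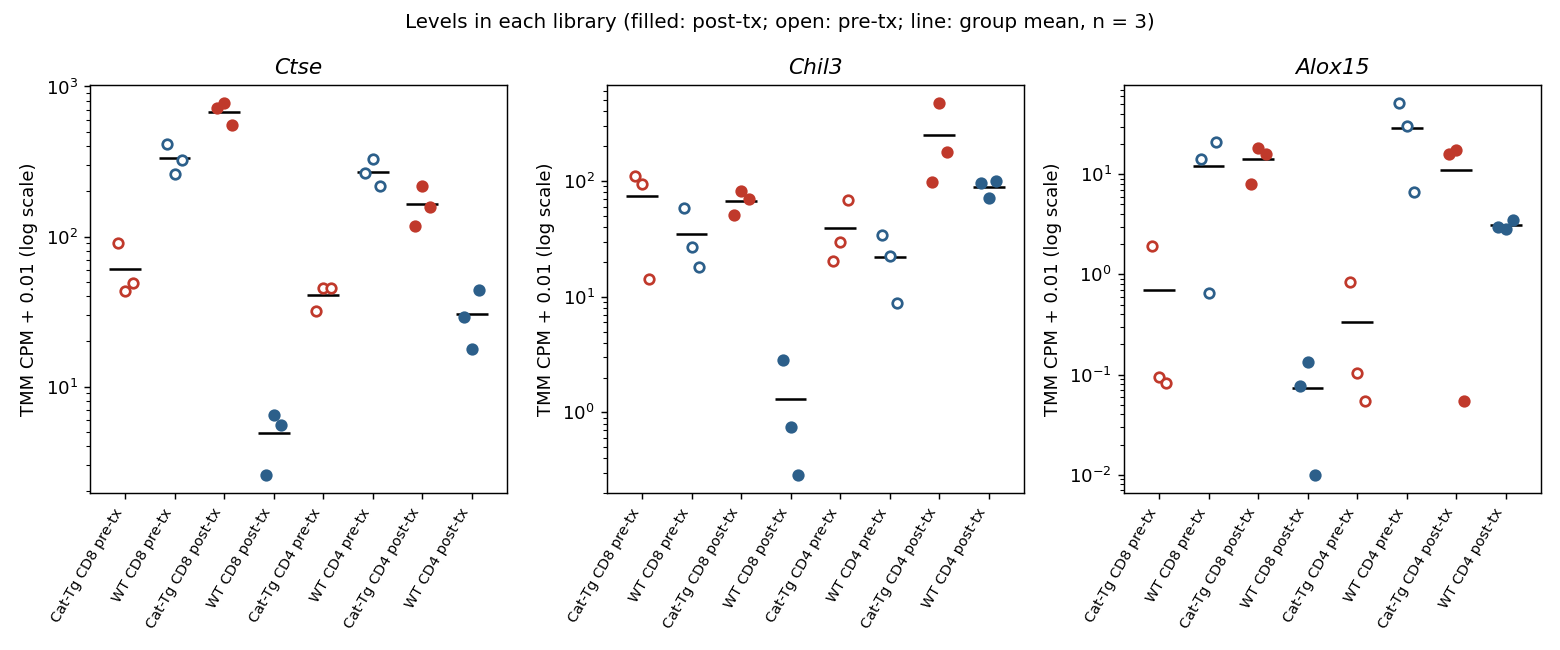
Level of Ctse, Chil3 and Alox15 in each library (TMM CPM plus 0.01, log scale) by group, with Cat-Tg in red, WT in blue, pre-tx as open points, post-tx as filled points and a line at the mean of 3. For each gene the WT CD8 post-tx libraries form the group with the lowest mean, and only for Ctse do the Cat-Tg CD8 post-tx libraries lie above all others.

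Over the 8 groups the genes followed different orders. For Ctse the WT CD8 pre-tx libraries came second, with 411, 262 and 321 CPM, followed by WT CD4 pre-tx, with 265, 330 and 217 CPM. Cat-Tg CD4 post-tx followed with 118, 219 and 158 CPM, then Cat-Tg CD8 pre-tx with 91.0, 43.5 and 48.6 CPM. Cat-Tg CD4 pre-tx had 31.7, 45.6 and 45.6 CPM, and WT CD4 post-tx 29.0, 17.9 and 44.1 CPM. The first place was clear of the second in TMM CPM, while neighbours overlapped at ranks 2 and 3, 3 and 4, 5 and 6, and 6 and 7. Cat-Tg CD8 post-tx kept the first rank on the other scales tried, but with raw library totals and in TPM (292 ± 50.1 against 230 ± 42.7, SD, n = 3) the ranges of Cat-Tg CD8 post-tx and WT CD8 pre-tx overlapped.

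For Chil3 the highest group was Cat-Tg CD4 post-tx, with 97.5, 469 and 179 CPM. WT CD4 post-tx had 96.3, 71.1 and 99.8 CPM, and Cat-Tg CD8 pre-tx 112, 94.9 and 14.3 CPM, so Cat-Tg CD8 post-tx was 4th. Below it were Cat-Tg CD4 pre-tx (20.3, 29.8 and 68.2 CPM), WT CD8 pre-tx (58.7, 27.1 and 17.9 CPM) and WT CD4 pre-tx (34.1, 22.7 and 8.86 CPM). All neighbours from rank 1 to rank 7 overlapped, and only WT CD8 post-tx stood clear at the bottom. Single libraries set these means: in Cat-Tg CD4 post-tx, replicate 2 held 23776 counts and replicate 1 1012.

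Alox15 was the scarcest and the most uneven. WT CD4 pre-tx had 50.9, 30.1 and 6.62 CPM, and Cat-Tg CD8 post-tx was second by its mean. WT CD8 pre-tx had 14.4, 0.636 and 20.9 CPM, and Cat-Tg CD4 post-tx 15.8, 17.4 and 0.0451 CPM, the last from 2 counts. WT CD4 post-tx was low and even, at 3.00, 2.81 and 3.50 CPM. The Cat-Tg CD8 pre-tx libraries had 1.89, 0.0857 and 0.0715 CPM, from 38, 2 and 2 counts. Those of Cat-Tg CD4 pre-tx had 0.836, 0.0933 and 0.0450 CPM. The ranges of the first 5 groups overlapped from neighbour to neighbour, and only WT CD4 post-tx and Cat-Tg CD8 pre-tx were clear of each other. By raw library totals Cat-Tg CD8 post-tx ranked 3 for Alox15 and by TPM 4.

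Several libraries went against their labels, which touches each comparison with WT pre-tx cells. Libraries carrying the label WT pre-tx, CD8 and CD4 alike, held both Cd8a, at 93.0 to 155 CPM, and Cd4, at 70.7 to 141 CPM, while in the 18 other libraries the co-receptor of the other lineage was at most 8.79 CPM. The 12 T cell markers summed to 2378 to 4360 CPM in these libraries, against 10426 to 16038 CPM in Cat-Tg pre-tx. The B cell marker Cd79a was at 1088 to 2574 CPM there, and between 25.9 and 141 CPM in Cat-Tg pre-tx. No comparison with WT pre-tx cells can be had without these libraries. In the other groups Cd3e and the matching co-receptor were present in all 18 libraries. In bulk RNA, fewer cells of a type and less RNA per cell cannot be told apart.

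Comparisons that do not use the choice of the genes were tested with edgeR in fits of the 12 libraries of a cell type, and a call needed both an adjusted p no higher than 0.05 and a log2 fold change of 2 or more in either direction. All 3 genes passed the filter on low values in both fits. Without the Cat-Tg CD8 post-tx libraries, the other 9 CD8 libraries above 1 CPM numbered 9 for Ctse, 7 for Chil3 and 3 for Alox15. In the CD4 libraries 12, 12 and 9 of 12 were above it.

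The CD4 cells of the same transplants answer whether the gap recurs in the other lineage. Ctse was higher in Cat-Tg than in WT CD4 cells post-tx, with no overlap, the log2 fold change being 2.23 (SE 0.326, adjusted p = 0.00088). It passed the fold threshold narrowly, and the call was lost without Cat-Tg replicate 2 (1.97) or WT replicate 2 (1.99). Chil3 differed by 1.26 on the log2 scale (SE 0.562, adjusted p = 0.178), and Alox15 by 1.63 (SE 1.18, adjusted p = 0.448), and neither was called. For Alox15, 2 of 3 Cat-Tg libraries lay above every WT library and the other below every one, and limma-voom gave the opposite sign, -1.14 (adjusted p = 0.703). Of all genes tested, 7.88% were called in this comparison, 2.3% higher and 5.58% lower. The excess of lower calls, 962 against 396 higher, was absent under limma-voom (456 against 472), in the 6 libraries alone (319 lower of 711 called) and without WT replicate 2 (273 against 304).

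Before transplantation the direction was the reverse for Ctse, with the limits of the WT pre-tx libraries given above. In CD8 pre-tx, Ctse was lower in Cat-Tg, with a log2 value of -2.42 (SE 0.427, adjusted p = 0.00269). Alox15 there was at -4.13 (SE 1.34, adjusted p = 0.0666) and Chil3 at 1.10 (SE 0.761, adjusted p = 0.428), so 1 of 3 genes was called where 6.02% of all genes were. DESeq2 (adjusted p = 0.00404) and edgeR without the filter (adjusted p = 0.0115) called Alox15 too, as did edgeR without Cat-Tg replicate 1 (-7.19) or WT replicate 2 (-4.71). In CD4 pre-tx, Ctse was lower in Cat-Tg by -2.49 (SE 0.33, adjusted p = 0.000129) and Alox15 by -6.17 (SE 1.47, adjusted p = 0.00837). The Alox15 call was lost under limma-voom (adjusted p = 0.107) and without the filter (adjusted p = 0.082). Chil3 was at 1.09 (SE 0.564, adjusted p = 0.203). The background in CD4 pre-tx was 7.67%. The markers listed above for B and T cells moved with these differences, and their part in them was not tested.

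The change of the Cat-Tg effect from pre-tx to post-tx was tested in CD4 cells as an interaction. It was 4.72 for Ctse (SE 0.464, adjusted p = 1.17e-05) and 7.80 for Alox15 (SE 1.86, adjusted p = 0.00994), both called, against 14.6% of all genes. For Chil3 it was 0.16 (SE 0.786, adjusted p = 0.893). The Alox15 call was lost under limma-voom (5.27, adjusted p = 0.225) and without the filter (7.98, adjusted p = 0.0801).

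Within a genotype, time was compared in CD4 cells. Cat-Tg CD4 libraries held more Chil3 post-tx, by 2.32 on the log2 scale (SE 0.581, edgeR adjusted p = 0.00553), and more Alox15, by 4.70 (SE 1.39, edgeR adjusted p = 0.0142). Ctse was 1.68 higher (SE 0.321, adjusted p = 0.000909), under the fold threshold. The Chil3 call was lost without Cat-Tg pre-tx replicate 1 (1.97) or Cat-Tg post-tx replicate 2 (1.46), and the Alox15 call without Cat-Tg pre-tx replicate 2 (adjusted p = 0.0608), under limma-voom (adjusted p = 0.457) and without the filter (adjusted p = 0.0735). These 2 calls stood against a background of 26.9%. In the same libraries macrophage markers summed to 1622 to 2391 CPM pre-tx and 8990 to 11054 CPM post-tx. Erythroid markers summed to 1380 to 2191 CPM and 4940 to 27634 CPM. T cell markers were lower post-tx, at 6283 to 7877 CPM against 10426 to 12469 CPM. The part of these lists in the differences was not tested. The WT CD4 comparison has the limits of the WT pre-tx libraries given above. In WT CD4 libraries Ctse was lower post-tx, at -3.04 (SE 0.337, edgeR adjusted p = 1.23e-05), while Chil3 was higher by 2.15 (SE 0.58, edgeR adjusted p = 0.0141). Alox15 was at -3.10 (SE 1.24, edgeR adjusted p = 0.0823), and 9.94% of genes were called. The Chil3 call was lost without WT pre-tx replicate 3 (1.60, adjusted p = 0.074) and without the filter (adjusted p = 0.0906), and Alox15 was called in a fit of the 6 libraries alone (adjusted p = 0.00374).

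WT CD8 post-tx libraries helped to choose the genes, so their other contrasts are given without a test. Against WT CD8 pre-tx, fitted log2 fold changes were -5.97 for Ctse, -4.68 for Chil3 and -7.49 for Alox15. Against WT CD4 post-tx, in a fit of all 24 libraries, they were -2.63, -6.16 and -5.67. Both contrasts share the 3 WT CD8 post-tx libraries. No range overlapped in any of these 6 contrasts.

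**Figure D2:**
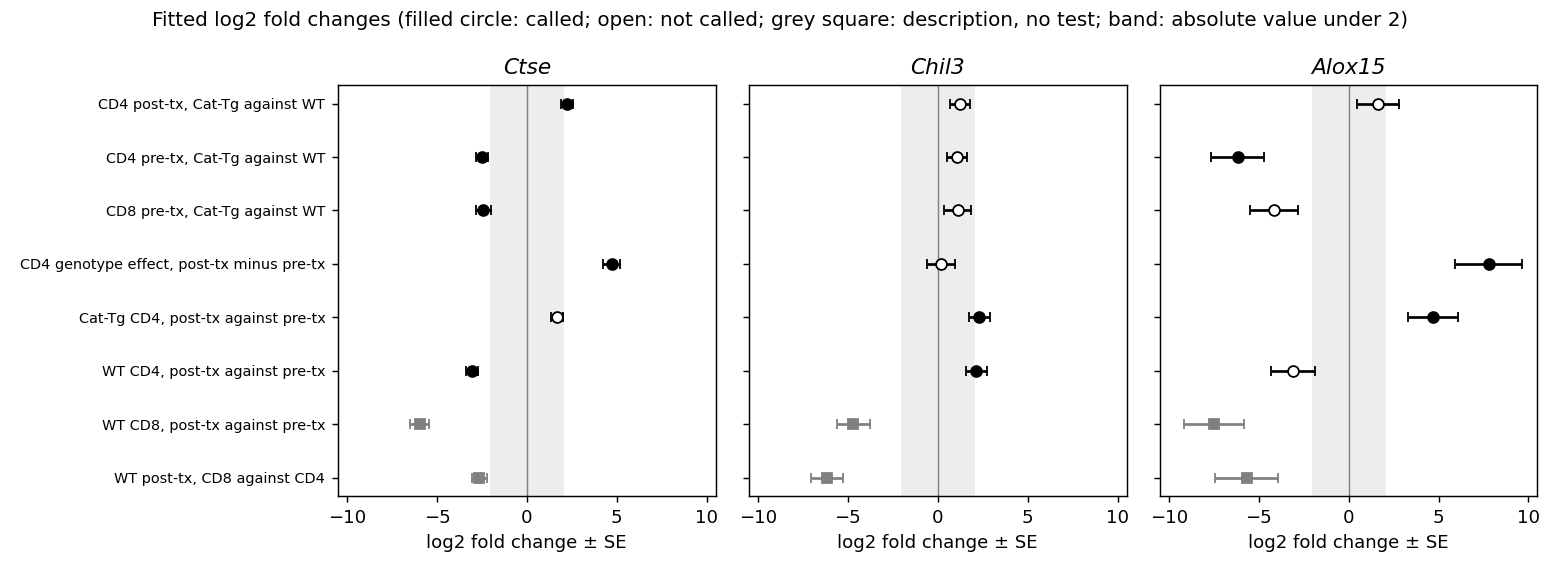
Fitted log2 fold change with its SE for each gene in the comparisons of the study (first group over second). Filled circles were called, open circles were not, grey squares are descriptions without a test, and the band marks absolute values under 2. Ctse is below 0 in the pre-tx genotype comparisons and above 0 in CD4 post-tx, and Chil3 is above 0 in the genotype comparisons, at 1.09 to 1.26.

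The families of the 3 genes were read in the same 2 post-tx genotype comparisons. Over all genes, 0.764% were called higher and 0.376% lower in CD8 post-tx, and 2.3% and 5.58% in CD4 post-tx. For families and pathways of this size, 0 called in CD8 is near the share over all genes. Of the other aspartic proteases, 4 were tested in CD8 and none was called. Cathepsin D (Ctsd), the abundant lysosomal member, had 5228 and 4624 CPM in Cat-Tg and WT CD8 post-tx, differing by 0.09 on the log2 scale (SE 0.443, adjusted p = 0.933). Bace2, a membrane protease, was at 0.125 and 9.57 CPM, at -6.30 (SE 1.55, adjusted p = 0.054). In CD4 post-tx, Bace2 was called lower (-7.67, SE 1.23, adjusted p = 0.00163) and Napsa, known in lung and kidney, higher (2.11, SE 0.286, adjusted p = 0.000492).

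Of the cysteine and serine cathepsins, 0 of 11 tested were called in CD8 post-tx and 1 of 11, Ctsf, in CD4 post-tx (2.81, SE 0.864, adjusted p = 0.0497). Ctsb, a major lysosomal cathepsin, was at 874 and 690 CPM in Cat-Tg and WT CD8 post-tx, and at 4245 and 1443 CPM in CD4 post-tx (1.33, SE 0.254, adjusted p = 0.00433, under the fold threshold). In the chitinase-like family, 0 of 5 were called in CD8 and 0 of 6 in CD4. Chil1, which encodes the inflammation-linked YKL-40 homologue, was at 6.23 and 1.31 CPM in CD8 post-tx (2.17, SE 1.28, adjusted p = 0.367). Chit1, the macrophage chitinase, was at 1.22 and 15.3 CPM (-3.75, SE 1.56, adjusted p = 0.213).

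In the lipoxygenase pathway, 0 of 10 genes were called in CD8 post-tx, at a median log2 fold change of 1.08 against -0.18 over all genes. Alox5 was at 3.59 and 1.18 CPM, and Alox5ap, which presents arachidonic acid to it, at 6.07 and 1.19 CPM (2.27, SE 0.78, adjusted p = 0.147). Ptgs1, the constitutive cyclooxygenase, was at 13.8 and 2.04 CPM in CD8 post-tx (2.64, SE 0.763, adjusted p = 0.087). It was called in CD4 post-tx, as 1 of 10, at 250 and 44.7 CPM (2.26, SE 0.427, adjusted p = 0.0042).

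The genes of alternative activation, the macrophage response to IL-4 and IL-13 in which Chil3 is a standard marker, were read last. In CD8 post-tx 0 of 11 were called. Its standard companions were scarce there: Arg1 was at 1.19 and 1.56 CPM in Cat-Tg and WT, Retnla at 1.03 and 0.0226 CPM, and Mrc1 at 5.27 and 1.82 CPM. In CD4 post-tx 4 of 14 were higher in Cat-Tg, against 2.3% of all genes, namely Mrc1 (2.73), Clec10a (4.36), Ccl24 (2.41) and Pparg (2.21). Mrc1, the mannose receptor, had 298 ± 176 and 38.3 ± 21.6 CPM in Cat-Tg and WT CD4 post-tx (SD, n = 3).

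Marker lists of the cell types known to carry these genes were set beside them. In CD8 post-tx, 1 of 19 erythroid markers was called higher in Cat-Tg, the anion exchanger Slc4a1 (5.09, SE 1.09, adjusted p = 0.0366), and 1 of 12 monocyte markers, the lysozyme gene Lyz2 (2.46, SE 0.552, adjusted p = 0.0413). No marker of the other 14 cell type lists was called in either direction, against 0.764% of all genes called higher and 0.376% lower. The counts in this comparison were unstable: without one library or under another setting, 0 to 9 of the 19 erythroid markers were called. List medians were 2.19 for erythroid, 2.16 for primary granule precursor, 1.74 for neutrophil, 0.86 for macrophage and -1.36 for B cell markers, against -0.18 over all genes.

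Summed levels show the sizes. Erythroid markers summed to 3017 to 4513 CPM in Cat-Tg CD8 post-tx and 274 to 2065 CPM in WT, without overlap. Neutrophil markers summed to 289 to 750 CPM and 75.1 to 137 CPM, also without overlap, and primary granule markers to 84.7 to 135 CPM and 15.2 to 30.6 CPM. Macrophage markers were at 276 to 419 CPM and 138 to 309 CPM, overlapping, and monocyte markers at 1135 to 1498 CPM and 1171 to 1470 CPM. Eosinophil markers were low in both, at 7.87 to 13.9 CPM and 2.76 to 7.05 CPM, and gastric and gut markers at 7.25 to 8.44 CPM and 5.89 to 23.8 CPM. T cell markers were high in both, at 14306 to 14794 CPM and 16556 to 19435 CPM. Of the markers of other cell types, Gp9 (platelets) and Clec9a (dendritic cells) were at 0 in all Cat-Tg libraries, and Cebpe (granulocyte precursors) and Gkn2 (stomach) in all WT libraries. Dendritic cell markers summed to 294 to 398 CPM in Cat-Tg and 72.3 to 140 CPM in WT, without overlap. Their median log2 fold change was -0.76, against -0.18 over all genes, so the sum was higher while the median marker was not. Megakaryocyte and platelet markers summed to 113 to 159 CPM and 31.6 to 73.4 CPM, and plasma cell markers to 213 to 270 CPM and 111 to 164 CPM. Basophil and mast cell markers summed to 23.6 to 31.3 CPM and 7.60 to 12.1 CPM. These also did not overlap, and the list medians were 1.67, 0.39 and 0.88. The sums of all these lists moved with the 3 genes in CD8 post-tx, as did the erythroid, neutrophil, primary granule and eosinophil sums. Bulk RNA does not show which cells, T cells among them, held the transcripts of a list. The part of these lists in the gap was not tested.

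In CD4 post-tx, 18 of 19 erythroid markers, 12 of 16 macrophage markers and 4 of 12 monocyte markers were called higher in Cat-Tg, and none lower. Of all genes, 2.3% were called higher and 5.58% lower. Neutrophil markers gave 0 of 14 and primary granule markers 0 of 9. Without each library in turn the erythroid count was 14 to 17 and the macrophage count 7 to 13. Erythroid markers summed to 4940 to 27634 and 670 to 1136 CPM in Cat-Tg and WT CD4 post-tx, and macrophage markers to 8990 to 11054 CPM and 1136 to 2398 CPM. Of the other lists, dendritic cell markers gave 3 of 11 higher, at 493 to 1041 CPM against 140 to 222 CPM, plasma cell markers 3 of 8, megakaryocyte and platelet markers 2 of 10, B cell markers 1 of 12, and eosinophil markers 2 higher and 1 lower of 5. Ctse moved with the lists called higher in CD4 post-tx, and their part in its difference was not tested.

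**Figure D3:**
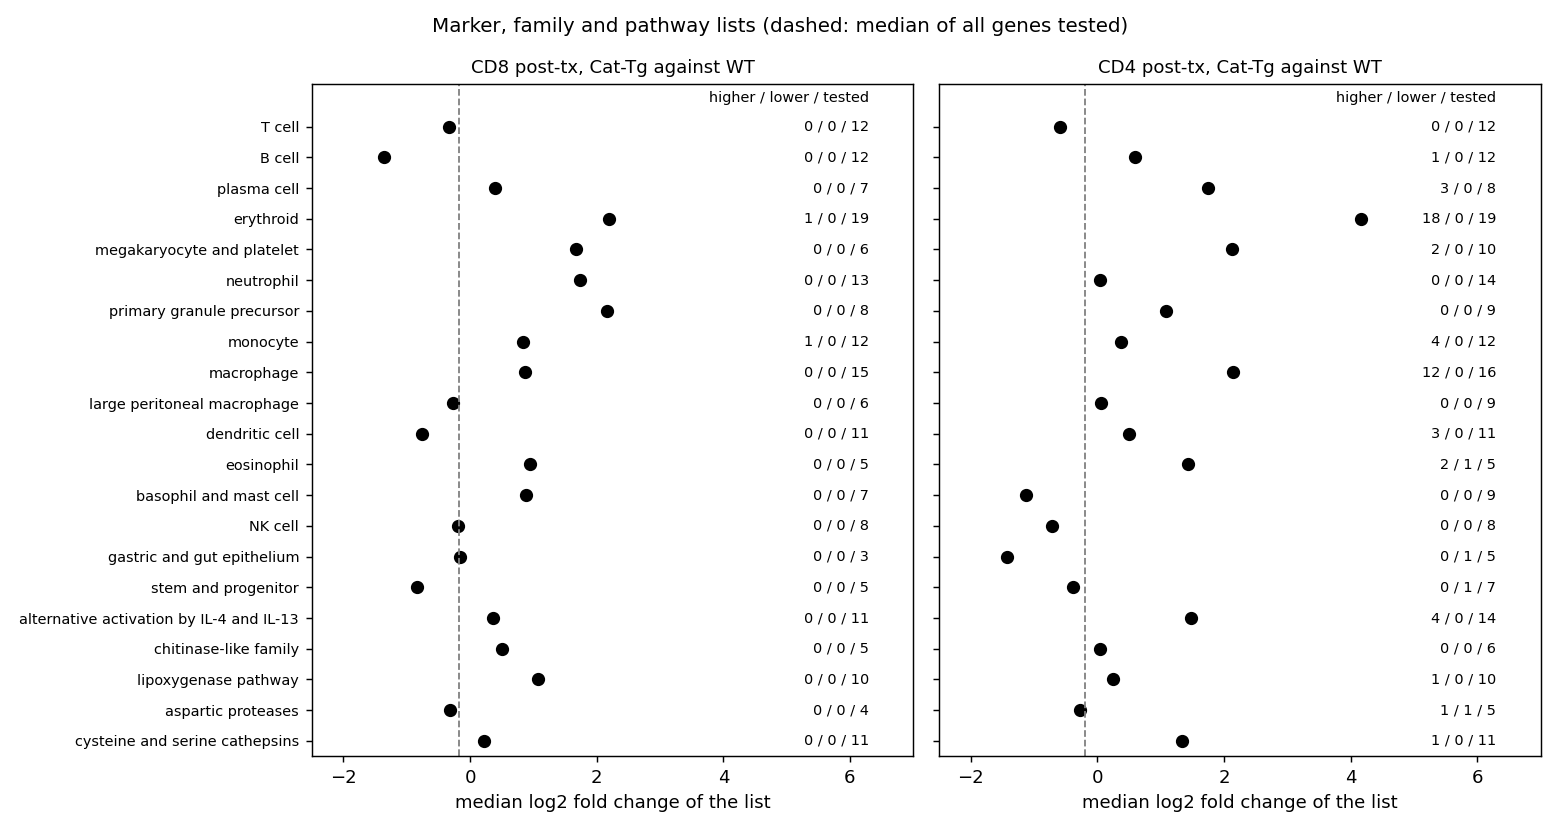
Median log2 fold change of each marker, family and pathway list (Cat-Tg over WT) in CD8 post-tx and CD4 post-tx, with the counts of genes called higher, called lower and tested at the right. The dashed line is the median of all genes tested, about -0.18 and -0.19. Erythroid markers stand highest in both panels, at 2.19 and 4.17.

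Chil3 was compared with the 21 libraries outside Cat-Tg CD8 post-tx, first relative to list sums and then in those with an equal or higher sum. In Cat-Tg CD8 post-tx it stood at 9.41 to 17.7 CPM per 100 CPM of neutrophil markers, within the 0.372 to 24.5 of the other libraries, and at 1.56 to 1.84 CPM per 100 CPM of erythroid markers, within 0.0356 to 14.9. Of the 13 libraries with as much neutrophil signal as the highest Cat-Tg CD8 post-tx library or more, 4 had less Chil3 than the lowest of that group and 7 had more than the highest. All 6 libraries with as much primary granule signal or more had more Chil3 than any Cat-Tg CD8 post-tx library. So did all 3 libraries with as much dendritic cell signal or more, which were the Cat-Tg CD4 post-tx libraries, the group with the highest mean Chil3. By macrophage markers, 7 of 15 such libraries had less than the lowest and 5 more than the highest. By basophil and mast cell markers, 6 of 16 had less and 7 more. By erythroid markers, 4 of the 10 libraries with as much signal or more had less Chil3 than the lowest Cat-Tg CD8 post-tx library, and 5 had more than the highest.

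Alox15 was uneven among libraries with equal or higher list sums. The 10 libraries with as much erythroid signal or more had sums of 4940 to 27634 CPM, against 3017 to 4513 CPM in Cat-Tg CD8 post-tx. Alox15 ranged from 0.0451 to 50.9 CPM in them. Cat-Tg CD4 post-tx replicate 3, with 2 counts of Alox15, had 9996 CPM of macrophage and 4940 CPM of erythroid markers. Of the 9 libraries with as much large peritoneal macrophage signal or more, 4 had less Alox15 than each Cat-Tg CD8 post-tx library and 3 had more.

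**Figure D4:**
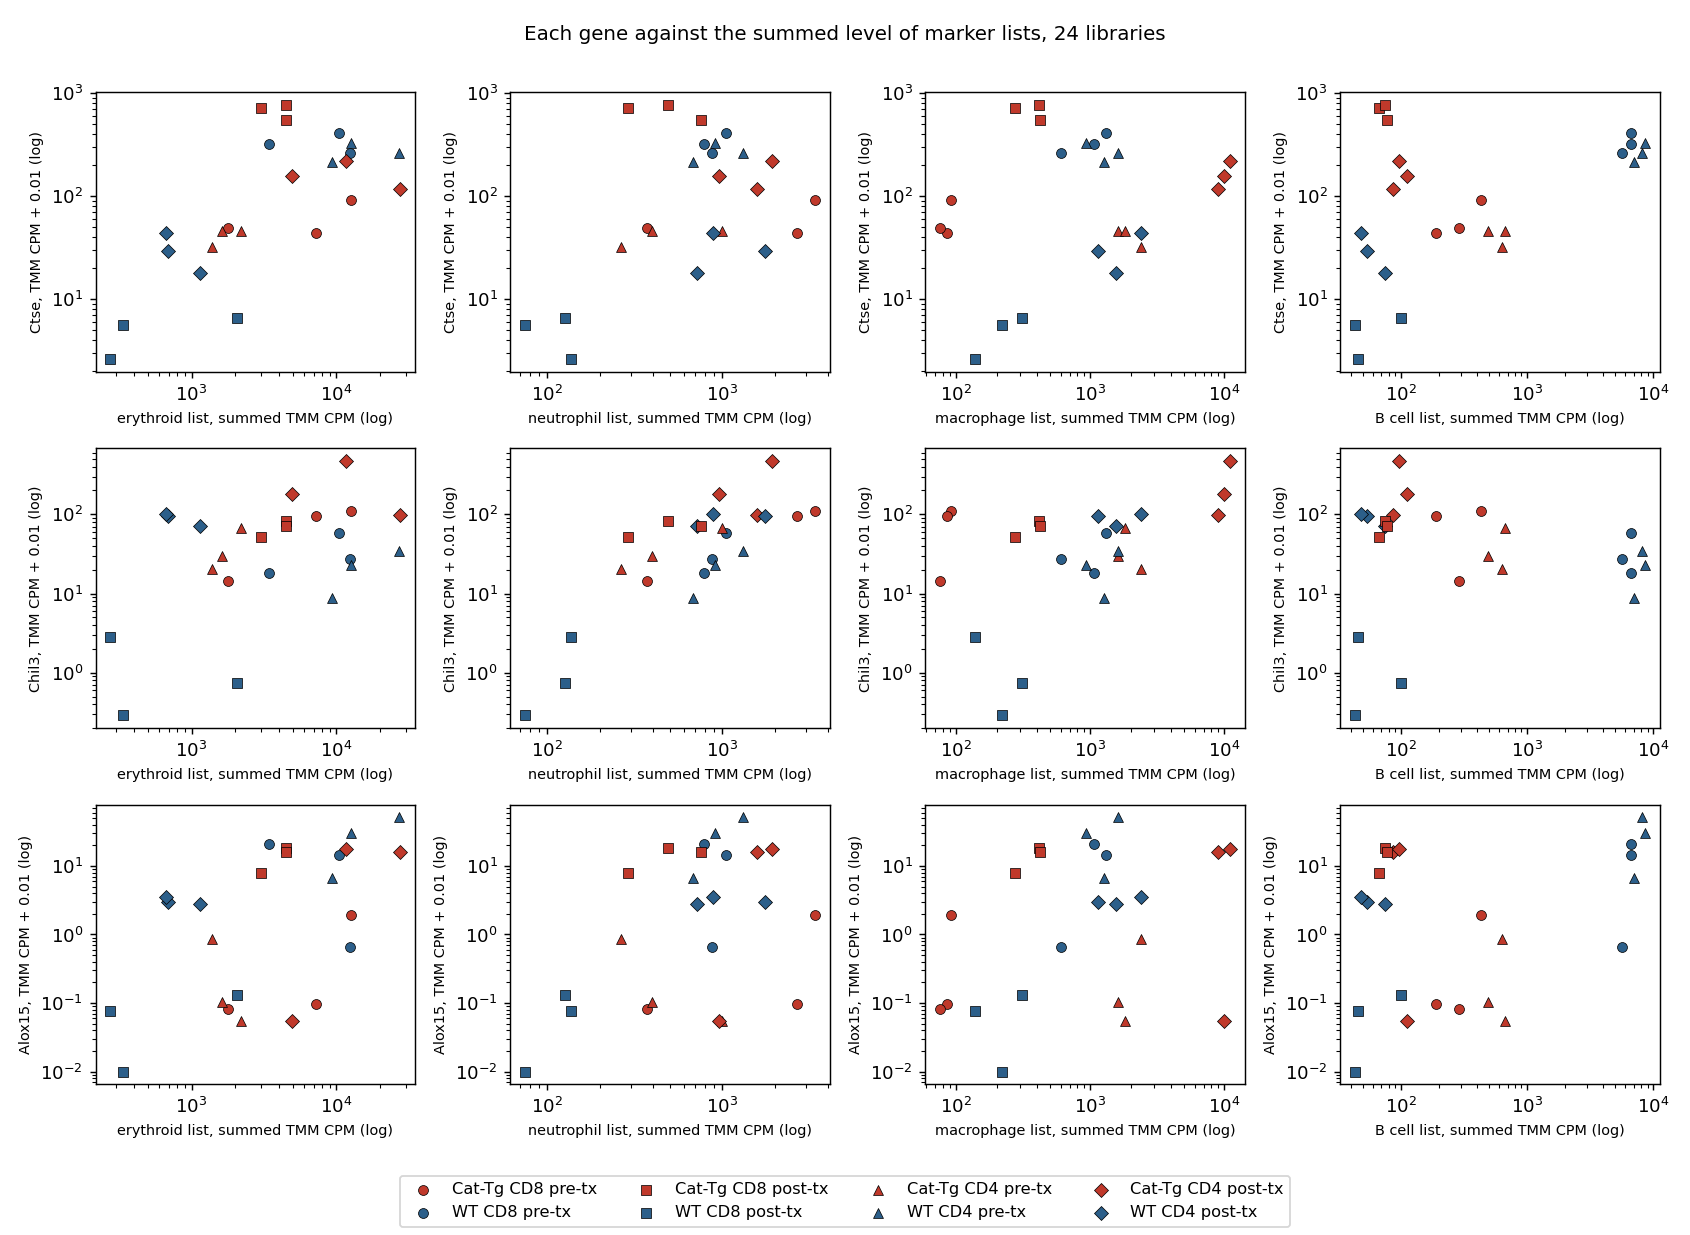
Ctse, Chil3 and Alox15 (rows, TMM CPM plus 0.01, log scale) against the summed TMM CPM of erythroid, neutrophil, macrophage and B cell markers (columns, log scale) in 24 libraries, with colour for genotype and shape for cell type and time. Cat-Tg CD8 post-tx libraries (red squares) are the highest for Ctse, the measure that chose it, and for Chil3 they lie among the others.

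The genes most like each member over the 24 libraries were ranked by Pearson's r of log2(CPM + 1) among 13856 protein-coding genes, as a description over libraries that share groups. For Ctse they were Mto1 (0.87), Arhgap17 (0.84), Unk (0.83), Tmem131l (0.83) and Irf2 (0.82). For Chil3 they were Eogt (0.88), Ngp (0.85), Smcr8 (0.85), Clip1 (0.84) and Golga3 (0.84). Ngp, neutrophilic granule protein, is the single member of a marker list among these 15 places. For Alox15 they were Ctns (0.80), Myo1c (0.78), Fn1 (0.77), Arhgap17 (0.77) and Pdcd11 (0.76). Between the members r was 0.72 for Ctse and Alox15, 0.53 for Ctse and Chil3 and 0.34 for Chil3 and Alox15.

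Over the 6 CD8 post-tx libraries, where the genotype gap sets most of any r, the nearest genes to Ctse were Il16, Mto1, Nfatc2, Xdh and Med12. Chil3 was nearest to Tmem39a, Dennd3, Car1, Siglecf and Bpgm, and genes near to Alox15 included Alas2, Anxa2, Tmem64 and Slc4a1, all with r from 0.99 to 1.00. Car1 (carbonic anhydrase 1), Alas2 (the erythroid enzyme of haem synthesis) and Slc4a1 are red cell markers. The gap in these libraries chose the members, so this nearness is a description only, and a cell source was not tested. Siglecf, at 3.68 CPM in Cat-Tg CD8 post-tx and 0.345 CPM in WT, is on the eosinophil list. Alas2 had a level of 63.6 CPM in Cat-Tg CD8 post-tx against 5.43 CPM in WT, and over the 8 groups it was highest in WT CD4 pre-tx at 233 CPM, as Alox15 was. In Cat-Tg CD8 pre-tx the 2 genes went apart, with Alas2 at 93.7 CPM and Alox15 at 0.684 CPM. For Ctse, Il16 and Nfatc2 were at 476 and 142 CPM in Cat-Tg CD8 post-tx and 260 and 16.7 CPM in WT.

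Minor forms of Ctse were read as well. The annotated form Ctse-202 lacks coding exon 8 of the main form, at chr1:131672445-131672543 on the plus strand, which is shown as the exon that tells these forms apart.
Ctse exon 8: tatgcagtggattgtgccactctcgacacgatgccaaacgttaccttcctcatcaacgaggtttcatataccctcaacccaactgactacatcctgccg

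Ctse-203, an annotated retained-intron transcript, took 2.02% to 5.53% of the Ctse counts in WT CD8 pre-tx. In Cat-Tg CD8 post-tx its share was 0.0348% to 0.282%, and in no library outside WT CD8 pre-tx was it above 2.44%. The ranges of this share in Cat-Tg CD8 post-tx and WT CD8 pre-tx did not overlap.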

How the data were processed

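Total RNA of the sorted cells was amplified (SMART-Seq HT) and sequenced without strand marking. For each library the authors deposited Kallisto 0.46.2 estimated counts and TPM per transcript. The submitters' processing notes name the build mm9, while coordinates here are of GRCm38. Of 117497 transcripts, 116374 matched GENCODE M21, and estimated counts were summed to gene symbols and rounded. Depth was 11135713 to 50519825 counts per library, so 3 counts are 0.0517 to 0.289 TMM CPM, and intervals and floors cover counting error only. Genes above 1 CPM in at least 3 fitted libraries were tested with edgeR 4.0.16 (R 4.3.3; TMM, robust quasi-likelihood F test, Benjamini-Hochberg adjustment over all genes), fitted per cell type and with no covariate. The study's own fit used TPM with voom and limma. The scripts were tested on simulated data. Alternatives were limma 3.58.1, DESeq2 1.42.0, other scalings, filters and thresholds, a replicate block and each library left out.

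The 3 genes and all lists were chosen with earlier results of these data known. Genes named beyond them are the first detected genes of each list, any called, and the 5 nearest genes by r, of which 1 is not reported here. By the study's methods the 3 libraries of a group are separate mice, and each mouse gave a CD4 and a CD8 library, so libraries of the 2 cell types are not independent. In no comparison did the deviations of same-numbered libraries correlate above 0.1 in all 3 pairs, and in 3 comparisons all 3 correlations were positive (up to 0.176).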

Additional observations from a re-analysis of the deposited data

Results flagged for a closer look

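In CD4 cells the Cat-Tg effect differed between time points, by the test of the difference itself. For Ctse the post-tx minus pre-tx difference was 4.72 on the log2 scale (SE 0.464, edgeR adjusted p = 1.17e-05), the effect being 2.23 post-tx and -2.49 pre-tx. For Alox15 it was 7.80 (SE 1.86, edgeR adjusted p = 0.00994), with 1.63 post-tx and -6.17 pre-tx. Both rest on the libraries labelled WT CD4 pre-tx, which held B cell transcripts and Cd8a, and the part of these was not tested.

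In CD8 cells every Cat-Tg library was below every WT library for Ctse pre-tx, a log2 ratio of means of -2.44, and above every WT library post-tx, a log2 ratio of 7.12. The difference was not tested, since the post-tx gap chose the gene.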

How the results depend on the processing

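Under settings other than leaving out a library, 196 log2 fold changes of the 3 genes kept direction and call. Of the rest, 10 lost the call, 5 gained it and 1 was reversed. These counts include the contrasts of WT CD8 post-tx with WT CD8 pre-tx and with WT CD4 post-tx, given above without a test. Calls kept there are no support, since the WT CD8 post-tx libraries helped to choose the genes. Alox15 in CD4 post-tx was reversed under limma-voom (-1.14). Of the 3 genes, limma-voom called 1 in CD4 pre-tx, in Cat-Tg CD4 post-tx against pre-tx and in the CD4 interaction. Without a filter 1 was called in CD4 pre-tx, in WT CD4 post-tx against pre-tx and in the interaction. DESeq2 and no filter each called 2 in CD8 pre-tx. With TPM the CD8 post-tx log2 ratio was 7.61 for Ctse and 8.38 for Alox15, from 7.12 and 7.80, and, added after seeing the data, the rank of Cat-Tg CD8 post-tx was 3 for Chil3 and 4 for Alox15, or 3 for Alox15 with raw totals.

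With each library left out, Ctse in CD4 post-tx ranged from 1.97 to 2.55, and the genes called there from 0 to 1. Those called ranged from 1 to 2 in Cat-Tg CD4 over time, in WT CD4 over time and in CD8 pre-tx. The Chil3 interaction ranged from -0.70 to 0.98, the CD8 post-tx log2 ratio of Chil3 from 5.24 to 7.06 and that of Alox15 from 7.21 to 8.70.

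A replicate block changed no call of the 3 genes. With the block Ctse in CD4 post-tx was 2.20 (edgeR adjusted p = 0.000838). Genes called in CD8 post-tx numbered 182, and 105 with the block, 699 by DESeq2, 415 without a filter, 30 in the 6 libraries alone and 5 to 444 with a library left out. In CD4 post-tx they numbered 1358, and 711 in the 6 libraries alone and 577 to 1613 with a library left out. Depth limits Alox15 most, at 0 to 2 counts in WT CD8 post-tx.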
